A study of Mus musculus with 12 samples.

Results

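Small leucine-rich proteoglycans and lysyl oxidases are secreted proteins of the collagen matrix, and 10 genes of this kind were followed through the first 3 days of fat cell differentiation with and without PRMT1. They comprised 6 small leucine-rich proteoglycans (Dcn, Lum, Bgn, Fmod, Ogn and Aspn), 3 lysyl oxidases (Lox, Loxl1 and Loxl2) and Fstl1, which belongs to neither family and is a secreted glycoprotein of the SPARC and follistatin group. They were found by gene name among the 39423 genes of the deposited tables, and the list had been chosen from the levels of these genes in the same 4 conditions, so their values are given as a description. The cells were 3T3-L1, a mouse preadipocyte line that differentiates under DMI (dexamethasone, 3-isobutyl-1-methylxanthine and insulin; MDI in the labels). Cells received a nontargeting siRNA (NC in the labels, siCtrl below) or siRNA against the arginine methyltransferase PRMT1 (KD in the labels, siPRMT1 below), both before DMI, and all were collected after 24 h (day 1) or 72 h (day 3) of DMI. With 3 libraries in each of the 4 conditions there were 12 mRNA libraries of 15116462 to 42357137 counts on genes. No undifferentiated cells are among them, and which siRNA against PRMT1 was sequenced is not stated in the sources used here. The study's methods speak of independent experiments for its data in general but do not say that the replicate libraries came from separate cultures, so the p-values measure the spread between these libraries, part of which may be technical.

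The small leucine-rich proteoglycans have a horseshoe-shaped core of leucine-rich repeats that binds collagen fibrils and sets their width and spacing, and several also hold growth factors such as TGF-beta. Decorin, biglycan and asporin form 1 class of the family, lumican and fibromodulin another, and osteoglycin (mimecan) a further class. Lysyl oxidases are copper-dependent enzymes that oxidise lysines of collagen and elastin, which starts the covalent cross-linking of the fibres. In culture, preadipocytes lay down a fibroblast-like fibrillar matrix, and as they turn into adipocytes it gives way to a matrix richer in basement membrane proteins.

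Promoter windows of 5 members were taken from the RefSeq promoter table of GRCm38.p6. Of these, 4 windows of 250 bases ending at the annotated start are shown because they contrast a neighbouring pair, Aspn and Ogn, with the pair of members that had the highest levels at day 1, Bgn and Fstl1. Capitals mark the letters of the TATA box (TATAAA) and of the GC box (GGGCGG) on either strand, overlapping matches included.
Aspn, chr13:49544193-49544442, plus strand: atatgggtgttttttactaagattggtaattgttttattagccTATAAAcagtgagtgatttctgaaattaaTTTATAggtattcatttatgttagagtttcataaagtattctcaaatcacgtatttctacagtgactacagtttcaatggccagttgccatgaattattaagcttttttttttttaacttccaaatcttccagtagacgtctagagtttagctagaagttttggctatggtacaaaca
Ogn, chr13:49607765-49608014, plus strand: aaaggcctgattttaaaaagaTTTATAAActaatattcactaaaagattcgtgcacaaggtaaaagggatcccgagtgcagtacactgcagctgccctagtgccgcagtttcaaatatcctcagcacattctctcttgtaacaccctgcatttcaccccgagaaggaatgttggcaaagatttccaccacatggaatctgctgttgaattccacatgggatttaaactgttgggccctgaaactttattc
Bgn, chrX:73483351-73483600, plus strand: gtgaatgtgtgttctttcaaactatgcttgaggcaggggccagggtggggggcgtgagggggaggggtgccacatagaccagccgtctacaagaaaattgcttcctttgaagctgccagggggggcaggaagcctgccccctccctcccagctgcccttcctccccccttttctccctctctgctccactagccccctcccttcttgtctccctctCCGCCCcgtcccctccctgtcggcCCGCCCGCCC
Fstl1, chr16:37776805-37777054, plus strand: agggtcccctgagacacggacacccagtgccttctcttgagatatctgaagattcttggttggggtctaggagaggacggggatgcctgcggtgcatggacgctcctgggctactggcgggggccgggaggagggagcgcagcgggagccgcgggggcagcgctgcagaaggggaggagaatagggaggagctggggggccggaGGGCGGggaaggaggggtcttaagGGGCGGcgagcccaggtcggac
The Aspn window had a GC content of 30% and the Ogn window 42%, at percentiles 1.45 and 15.9 of the 32841 windows of this length in the table, whose median was 52.4%. Bgn had 64.4% and Fstl1 68%, at percentiles 81.6 and 87.8. Aspn held 2 matches to the TATA box letters, 207 and 178 bases before the start, and Ogn 2 overlapping ones, 229 and 227 bases before it. These letters occurred in 12.4% of all windows. Bgn held 3 matches to the GC box letters, 34, 10 and 6 bases before the start. Fstl1 had 2, at 46 and 22 bases, against 32.7% of all windows with at least 1. The Fmod window, not shown, held the letters of the C/EBP site, TTGCNNAA (9.57% of windows), and matched neither box. None of the 5 windows held the cAMP response element TGACGTCA (1.55%) or the consensus glucocorticoid response element (0.387%). A match is a description of the letters and not a measured binding site.

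Several members are neighbours in the genome, all positions being GRCm38 as in the deposited count table. Dcn (chr10:97479500-97518163) and Lum (chr10:97565501-97572703) lie on the plus strand with 47.3 kb and no other gene between them. Kera, the keratocan gene, follows 34.3 kb beyond Lum, with 1 other gene between Lum and Kera. Aspn (chr13:49544443-49567565) and Ogn (chr13:49608071-49624500) lie 40.5 kb apart on the plus strand with Omd, the osteomodulin gene, between them, and Ecm2 11.7 kb before Aspn. Both Aspn and Ogn lie inside Cenpp, a centromere protein gene on the minus strand with 105 to 936 counts per library. Exons of Cenpp overlap 275 exon bases of Aspn and none of Ogn, and since no strand setting of the counting is stated, reads from those Aspn bases cannot be assigned to one gene. Fmod (chr1:134037515-134048277) has its relative Prelp at a distance of 107.5 kb, with 2 other genes between them. Loxl2 (chr14:69608692-69695834) is overlapped by Gm27177, with no shared exon base and 0 to 2 counts per library, and by Mir6950, with 7 shared exon bases and 0 to 1 counts. Fstl1 (chr16:37777055-37836516) is overlapped by Gm41452 on the minus strand, with no shared exon base and 2 to 32 counts. No other gene of the table overlaps Bgn (chrX:73483601-73495936) or Loxl1 (chr9:58287723-58313212, minus strand).

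The target Prmt1 fell under siPRMT1 by 1.11 on the log2 scale at day 1 (standard error 0.0758) and by 0.88 at day 3 (0.0883). Markers of preadipocytes and adipocytes were present as the label of the line says. In siCtrl cells the summed FPKM (the gene's counts per length, relative to the library's total) of 8 adipocyte markers was 148 to 154 at day 1 and 2802 to 3019 at day 3, and that of 7 preadipocyte markers 1782 to 1868 and 882 to 1019. The preadipocyte sum was mostly Vim, at means of 1189 and 844. A mean of at least 1 FPKM was reached by 5 of the adipocyte markers at day 1 and 8 at day 3, and by 6 of the preadipocyte markers at each day. Both sums also differed with the knockdown: under siPRMT1 the adipocyte sum was 112 to 126 at day 1 and 2175 to 2384 at day 3, and the preadipocyte sum 1530 to 1544 and 1164 to 1211. Of the 5 macrophage markers Cd68 alone exceeded a mean of 1 FPKM and Ptprc was at 0 in every library, while the summed FPKM of 5 endothelial markers did not exceed 0.89 in any library. Krt14 reached a mean of 6.27 FPKM among 4 epithelial markers and Sox9 28.5 among 8 bone, cartilage and tendon markers, in which Acan was at 0 in 3 of the 4 conditions. One library stood apart: the chi-square per gene between siCtrl replicate 3 at day 1 and its replicates was 30.8 and 50.6, against 4.14 to 15.8 in the other replicate pairs.

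The members spanned 3 orders of size in control cells. In siCtrl cells at day 1 the mean FPKM was 901 for Bgn and 621 for Fstl1, whose ranges did not overlap. Lox (156), Loxl1 (143), Aspn (141) and Dcn (119) followed, and the ranges of neighbours among these 4 overlapped. Lum (12.7) and Ogn (5.10) came next, each clear of its neighbours. Fmod (0.85) and Loxl2 (0.74) were lowest and overlapped, with 50 to 95 and 82 to 147 counts per library. Together the 10 genes took 0.623% to 0.648% of the counts of the siCtrl libraries at day 1 and 0.286% to 0.301% at day 3. In siPRMT1 libraries they took 0.504% to 0.533% at day 1 and 0.358% to 0.370% at day 3, so the share was below that of siCtrl cells at day 1 and above it at day 3.

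**Figure D1:**
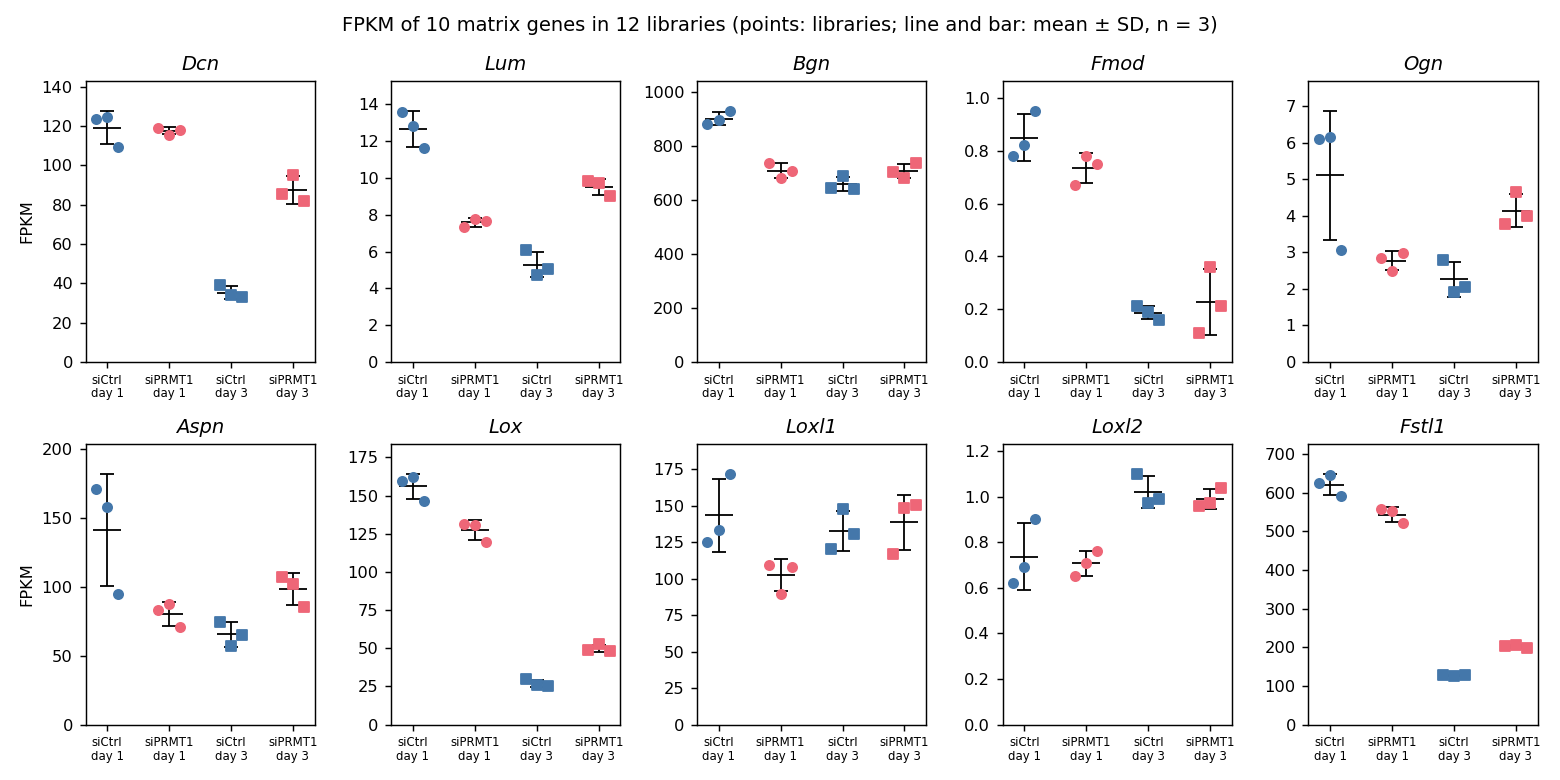
FPKM (vertical axis, from 0) of the 10 genes in each library (points) of siCtrl (blue) and siPRMT1 cells (red) at day 1 (circles) and day 3 (squares), with mean and SD (n = 3). Dcn, Lum, Lox and Fstl1 are lowest in siCtrl cells at day 3, and Aspn and Ogn show 1 siCtrl library at day 1 far below the other 2.

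Between day 1 and day 3, control cells lost message of most of these genes. A gene was called when edgeR gave it an adjusted p under 0.05 over all genes tested and its log2 fold change exceeded 0.5 in size. In siCtrl cells 8 members were called lower at day 3 than at day 1 and 0 higher, where 20.4% of the 13829 genes tested were called lower and 22.7% higher. The members' median log2 fold change was -1.29, against -0.0042 over all genes tested. In bulk RNA, fewer cells of a type and less RNA per cell cannot be told apart, and the preadipocyte marker sum was lower alongside, with 6 of its 7 genes called lower. Its part in the result was not tested.

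Among the proteoglycans, Dcn (decorin, which binds collagen and TGF-beta) had 123, 125 and 109 FPKM in siCtrl cells at day 1 and 39.0, 34.0 and 32.8 at day 3. The groups were far apart, and day 3 stood at 29.6% of day 1 (log2 fold change -1.83, standard error 0.0935). Lum (lumican, a keratan sulfate proteoglycan first known from cornea) went from 13.6, 12.8 and 11.7 FPKM to 6.07, 4.75 and 5.04, also without overlap (-1.33, standard error 0.122). Fmod (fibromodulin, which binds collagen at a site near that of lumican) went from 0.78, 0.82 and 0.95 to 0.21, 0.19 and 0.16 FPKM, with 8 to 12 counts per library at day 3 (-2.26, standard error 0.231). Bgn (biglycan, the close relative of decorin) had 879.95, 894 and 928 FPKM at day 1 and 643, 688 and 641 at day 3. All 3 libraries at day 3 were below all at day 1, but biglycan kept 72.9% of its level and was the smallest call (-0.53, standard error 0.0641), at the edge of the fold threshold and under it in the 3 fits on FPKM.

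Aspn and Ogn, the neighbours, had the same outlying library. Aspn (asporin, which binds collagen and TGF-beta) had 171, 158 and 94.9 FPKM at day 1 and 74.6, 56.7 and 64.8 at day 3, and Ogn (osteoglycin) 6.09, 6.14 and 3.07 and then 2.80, 1.90 and 2.06. In both genes siCtrl replicate 3 at day 1 was the low one and still lay above the libraries of day 3. The log2 fold change was -1.18 for Aspn (standard error 0.190) and -1.25 for Ogn (0.256). Without that library it was -1.41 and -1.51.

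The lysyl oxidases split. Lox, the founding enzyme of the family (chr18:52516060-52529867, minus strand), went from 159, 162 and 147 FPKM to 29.8, 25.96 and 25.4, which left 17.3% of its level (-2.60, standard error 0.0849). This was the largest fall of the 10 members. Loxl1, which acts on elastin, had 125, 133 and 172 FPKM at day 1 and 120.2, 148 and 131 at day 3, with overlapping groups and no call (-0.18, standard error 0.128). Loxl2, which acts on collagen IV of basement membranes, had 0.62, 0.69 and 0.90 at day 1 and 1.10, 0.97 and 0.99 at day 3. Its log2 fold change of 0.41 (standard error 0.172) was not called, but was 0.57 and called without siCtrl replicate 3 at day 1. Fstl1 went from 625, 647 and 592 FPKM to 127, 125 and 127, at 20.3% of its day 1 level (-2.37, standard error 0.0644).

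The order of the levels changed with these differences. In siCtrl cells at day 3 Bgn (657 FPKM) was followed by Loxl1 (133) and Fstl1 (126), whose ranges overlapped. Aspn (65.3), Dcn (35.3) and Lox (27.0) came next, each clear of its neighbours, and Lum (5.29), Ogn (2.25), Loxl2 (1.02) and Fmod (0.19) ended the order.

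At day 1 the knockdown comparison asked what 3T3-L1 cells lacking part of their PRMT1 did early after induction. Of the 10 members 3 were called lower in siPRMT1 than in siCtrl cells and 0 higher, where 1.61% of the 13689 genes tested were called lower and 1.95% higher (220 and 267 genes, against 80 and 166 with limma on log2(FPKM + 1)). The log2 fold change was negative in all 10, with a median of -0.37, against a median of 0.0096 over all genes tested, 51.7% of which were above 0. The preadipocyte and adipocyte marker sums were both lower under siPRMT1 at this day, as given above, but the preadipocyte sum was mostly Vim. Of the 7 preadipocyte markers 3 had a log2 fold change above 0 and 0 were called. Of the 7 adipocyte markers tested 0 were above 0 and 4 were called lower. With a library left out, the call was lost in 1 of 6 fits for Pparg, 3 for Cebpa, 4 for Cidec and 5 for Cd36. The part of these markers in the members' values was not tested.

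Lum was the firmest of the 3. It had 13.6, 12.8 and 11.7 FPKM in siCtrl and 7.31, 7.76 and 7.68 in siPRMT1 cells, with no knockdown library as high as any control library. The knockdown level was 59.9% of control (log2 fold change -0.79, standard error 0.0927), and Lum was called with each of the 6 libraries left out in turn. Aspn had 171, 158 and 94.9 FPKM in siCtrl and 83.1, 87.5 and 70.5 in siPRMT1 cells. There was no overlap, yet siCtrl replicate 3 lay close to the knockdown libraries (-0.87, standard error 0.204). Without that library the difference was -1.09, while the call was lost without any other 1 of the 6, at values between -0.70 (without siCtrl replicate 1) and -0.96 (without siPRMT1 replicate 2). The values without siCtrl replicate 2 and siPRMT1 replicates 1 and 3 were -0.78, -0.92 and -0.79.

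Loxl1 showed the reverse of that library: siCtrl replicate 3 was the high one, with 125, 133 and 172 FPKM in siCtrl against 109.5, 89.6 and 108 in siPRMT1 cells. No value of one group lay within the other, and the log2 fold change was -0.53 (standard error 0.123). It was -0.39 without siCtrl replicate 3, which is under the fold threshold, and the call held with siCtrl replicate 1 left out (-0.62) and was lost without siCtrl replicate 2 (-0.58) and without siPRMT1 replicates 1 (-0.61), 2 (-0.47) and 3 (-0.58).

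Ogn had 6.09, 6.14 and 3.07 FPKM in siCtrl and 2.83, 2.48 and 2.99 in siPRMT1 cells. Its log2 fold change of -0.95 (standard error 0.249) missed the threshold at an adjusted p of 0.056. Without siCtrl replicate 3 it was -1.20 and was called. Bgn (736.5, 679.7 and 707 FPKM under siPRMT1), Lox (132, 131 and 119.8) and Fstl1 (557, 552 and 521) were each below every siCtrl library and passed the adjusted p, but at log2 fold changes of -0.40, -0.34 and -0.24 they were under the fold threshold. Dcn, the neighbour of Lum, had 119, 116 and 118 FPKM under siPRMT1, within the siCtrl range, and a log2 fold change of -0.07 (standard error 0.0718). Fmod (0.67, 0.78 and 0.75 FPKM under siPRMT1) and Loxl2 (0.65, 0.71 and 0.76) also overlapped the siCtrl libraries, at -0.25 (standard error 0.157) and -0.09 (0.164). On counts scaled by TMM, every siPRMT1 library of Fmod lay below the siCtrl libraries, while Loxl2 overlapped there too.

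At day 3 the direction of the comparison was the other way. Of the 10 members 6 were called higher in siPRMT1 than in siCtrl cells and 0 lower, where 2.84% of the 14039 genes tested were called higher and 3.80% lower. The members' median log2 fold change was 0.63, against 0.0073 over all genes tested. At the same day the preadipocyte marker sum was higher and the adipocyte marker sum lower under siPRMT1. The preadipocyte sum was again mostly Vim, at means of 844 FPKM in siCtrl and 1028 in siPRMT1 cells, and Vim was not called. Of the 7 preadipocyte markers 6 had a log2 fold change above 0, and Pdgfra and Ly6a were called higher. Of the 8 adipocyte markers 0 were above 0, and Plin1, Adipoq and Cidec were called lower (Cidec not without siCtrl replicate 2, at -0.47). The part of these markers in the members' values was not tested.

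**Figure D2:**
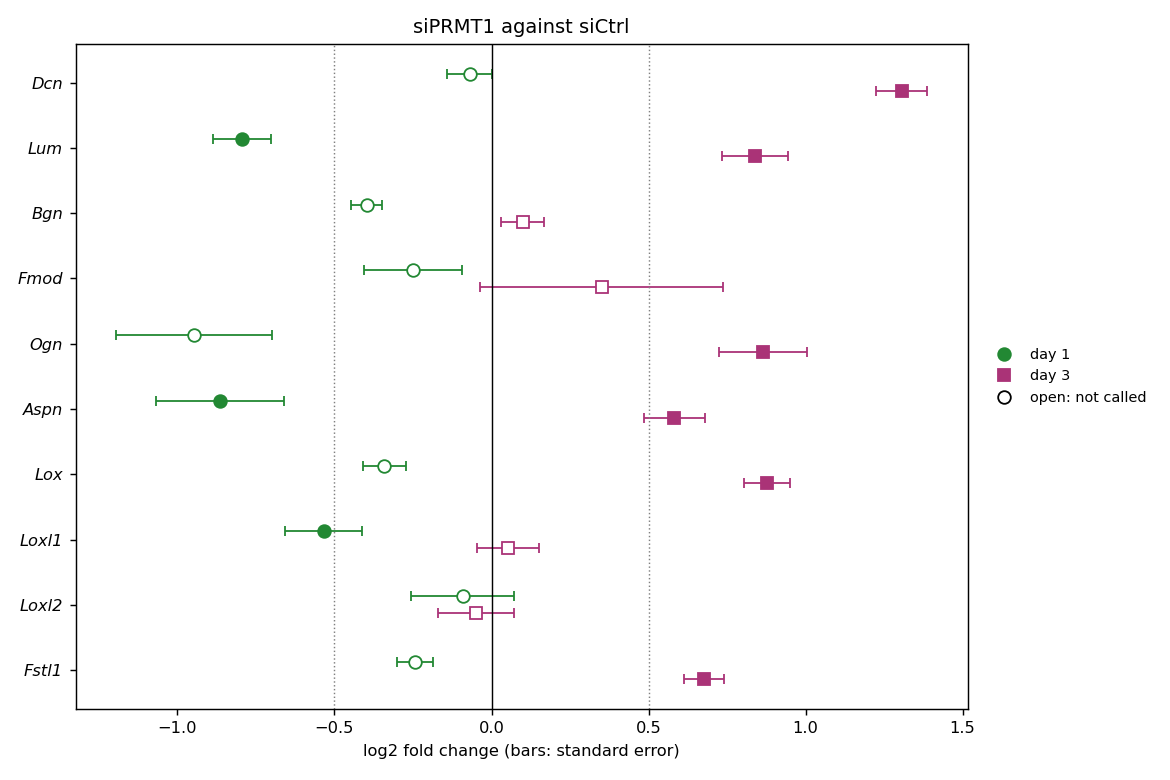
Log2 fold change of siPRMT1 against siCtrl (horizontal axis) with standard error for the 10 genes at day 1 (green circles) and day 3 (purple squares), 3 libraries per group. Filled symbols are called genes, dotted lines mark the fold threshold of 0.5, all day 1 values lie below 0, and 6 of the day 3 symbols are filled to the right of it.

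Dcn had the largest difference at day 3. It had 39.0, 34.0 and 32.8 FPKM in siCtrl and 85.4, 95.3 and 81.6 in siPRMT1 cells, so the lowest knockdown library held more than the highest control library by a wide margin. The knockdown level was 248% of control (log2 fold change 1.31, standard error 0.0810). Lum had 6.07, 4.75 and 5.04 against 9.81, 9.75 and 9.01 FPKM, 180% of control (0.84, standard error 0.104). Ogn had 2.80, 1.90 and 2.06 against 3.78, 4.64 and 3.98 FPKM (0.86, standard error 0.139), and Aspn 74.6, 56.7 and 64.8 against 107, 102 and 85.3 (0.58, standard error 0.0977). In each of these genes the groups were separate. The Aspn difference was near the fold threshold and fell under it, at 0.499862, without siCtrl replicate 2.

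Lox had 29.8, 25.96 and 25.4 FPKM in siCtrl and 48.5, 52.8 and 48.2 in siPRMT1 cells, 184% of control (0.88, standard error 0.0739). Fstl1 had the smallest standard error of the members, with 127, 125 and 127 against 203, 207 and 199 FPKM, 161% of control (0.68, standard error 0.0633). Apart from the Aspn case above, each of the 6 calls at day 3 was kept with any 1 library left out.

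The other 4 members gave no call at day 3. Bgn had 643, 688 and 641 FPKM in siCtrl and 704, 682 and 735 in siPRMT1 cells, with overlap (0.10, standard error 0.0683). Loxl1 had 120.2, 148 and 131 against 117, 148 and 151 (0.05, standard error 0.0981), and Loxl2 1.10, 0.97 and 0.99 against 0.96, 0.97 and 1.04 (-0.05, standard error 0.121). Fmod had 0.21, 0.19 and 0.16 against 0.11, 0.36 and 0.21 FPKM from 7 to 27 counts per library, and its difference of 0.35 had a standard error of 0.386. The siPRMT1 libraries of Fmod lay on both sides of the siCtrl range.

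In siPRMT1 cells fewer members were called over the course from day 1 to day 3. Here 3 members were called lower at day 3 and 1 higher, where 17.4% of the 14224 genes tested were called lower and 19.0% higher. The members' median log2 fold change was 0.13, against 0.0022 over all genes. Of the 10 values 5 were above 0 and 5 below, and 9 passed the adjusted p. Of the 14224 genes tested, 4583 passed it above 0 and 4431 below. These libraries are also those of the knockdown comparisons, so the values are a rearrangement of the same data. Lox (from 132, 131 and 119.8 to 48.5, 52.8 and 48.2 FPKM) and Fstl1 (from 557, 552 and 521 to 203, 207 and 199) were called lower at -1.37 (standard error 0.0622) and -1.43 (0.0532), and kept 39.1% and 37.3% of their day 1 level. Fmod, from 0.67, 0.78 and 0.75 to 0.11, 0.36 and 0.21 FPKM, was called lower at -1.65 (standard error 0.276).

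Ogn rose, from 2.83, 2.48 and 2.99 to 3.78, 4.64 and 3.98 FPKM, and was called higher at 0.57 (standard error 0.110). It was under the fold threshold without siPRMT1 replicate 2 at day 1 (0.494609) or at day 3 (0.478655). Lum went from 7.31, 7.76 and 7.68 to 9.81, 9.75 and 9.01 FPKM and Aspn from 83.1, 87.5 and 70.5 to 107, 102 and 85.3, at log2 fold changes of 0.31 and 0.27 under the fold threshold. Dcn went from 119, 116 and 118 to 85.4, 95.3 and 81.6 FPKM, 74.4% of day 1 (-0.44, standard error 0.0619), also under it. Loxl1 and Loxl2 stood at 0.42 (adjusted p = 0.0013) and 0.47 (adjusted p = 0.0032), above every day 1 library but under the fold threshold. In siCtrl cells they had -0.18 and 0.41. Bgn stood at -0.01 (standard error 0.0539), with 99.9% of its day 1 mean.

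**Figure D3:**
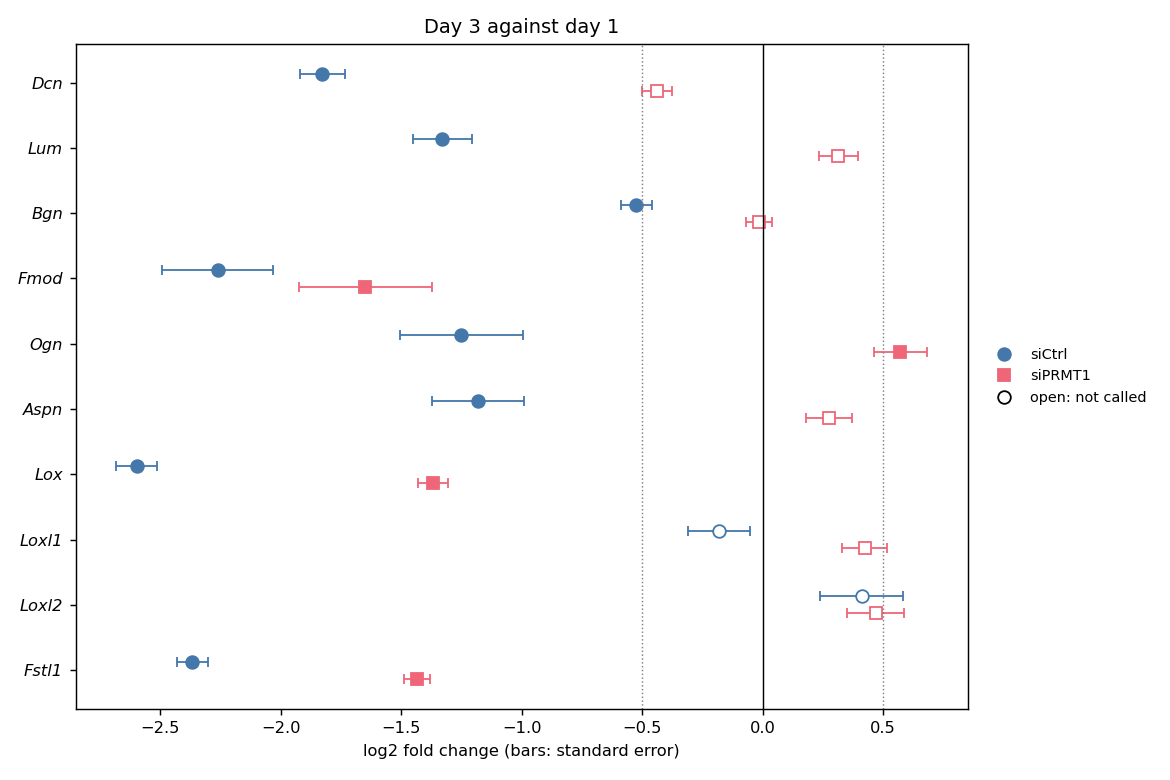
Log2 fold change of day 3 against day 1 (horizontal axis) with standard error for the 10 genes in siCtrl (blue circles) and siPRMT1 cells (red squares), 3 libraries per group. Filled symbols are called genes and dotted lines mark the fold threshold of 0.5. For Lox, Fstl1 and Dcn the siCtrl symbol lies well left of the siPRMT1 symbol, and for Loxl2 the symbols lie together.

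The difference between the knockdown effects of the days was fitted as the interaction of siRNA and day over the 12 libraries. It was above 0 in all 10 members and in 52.2% of all genes tested. It was called, at an adjusted p under 0.05 with no fold threshold, in 8 members (0 below 0), where 7.69% of the 14612 genes tested were called above 0 and 4.63% below. These were 1123 and 676 genes, but 750 and 1013 with limma on log2(FPKM + 1) and 1760 and 1974 without siCtrl replicate 3 at day 1, while the members' count remained between 7 and 8 in every alternative fit. It was largest in Ogn (1.83, standard error 0.302) and Lum (1.65, standard error 0.137), followed by Aspn (1.46), Dcn (1.39), Lox (1.24), Fstl1 (0.94), Loxl1 (0.61) and Bgn (0.52). Lum and Aspn were called lower at day 1 and higher at day 3, Dcn, Lox, Ogn and Fstl1 were called at day 3 alone, Loxl1 at day 1 alone and Bgn at neither day. Fmod (0.61, standard error 0.414) and Loxl2 (0.06, standard error 0.202) were not called.

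Other genes of the same families are given for context. Of the 13 further genes of the small leucine-rich and related repeat families, 8 passed the filter on low counts at day 1, with 0 called higher and 2 lower, and 9 at day 3, with 2 called higher and 1 lower. Of all genes tested 1.95% were called higher and 1.61% lower at day 1, and 2.84% and 3.80% at day 3. Kera, keratocan, the neighbour of Lum, went with Lum: it had 3.97, 3.45 and 3.93 FPKM in siCtrl and 1.68, 1.67 and 1.37 in siPRMT1 cells at day 1, and 1.06, 0.86 and 0.79 against 1.52, 1.96 and 1.67 at day 3. Its log2 fold change was -1.32 at day 1 (standard error 0.133, adjusted p = 0.0030) and 0.93 at day 3 (standard error 0.172, adjusted p = 0.0017), and the difference between the days was 2.27 (adjusted p = 1.7e-05). Lrrc17, a secreted leucine-rich repeat protein, was -0.39 at day 1, not called, and 0.78 at day 3 (adjusted p = 2.0e-05), with 11.6, 12.3 and 12.4 FPKM in siCtrl against 19.9, 22.7 and 20.0 in siPRMT1 cells.

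Prelp, a collagen-binding member of the class of lumican, ran the other way over time. It rose between the days by 2.29 in siCtrl and 2.47 in siPRMT1 cells, and was below control at both days, at -0.65 (adjusted p = 0.031) and -0.48 (adjusted p = 0.0013, under the fold threshold). The day 1 call of Prelp was lost without siCtrl replicate 2 (-0.71) and without any 1 of the siPRMT1 libraries (-0.73, -0.58 and -0.71). Tsku, the secreted signalling regulator tsukushi, had 37.2, 41.1 and 38.2 FPKM in siCtrl and 23.8, 27.0 and 28.5 in siPRMT1 cells at day 3, called lower at -0.56 (adjusted p = 2.0e-04), and fell under the fold threshold, at -0.497302, without siPRMT1 replicate 1. Podn rose between the days in siCtrl (2.50) and siPRMT1 cells (3.95) from under 0.2 FPKM, and Podnl1 and Ecm2, all under 1 FPKM, gave no knockdown call.

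**Figure D4:**
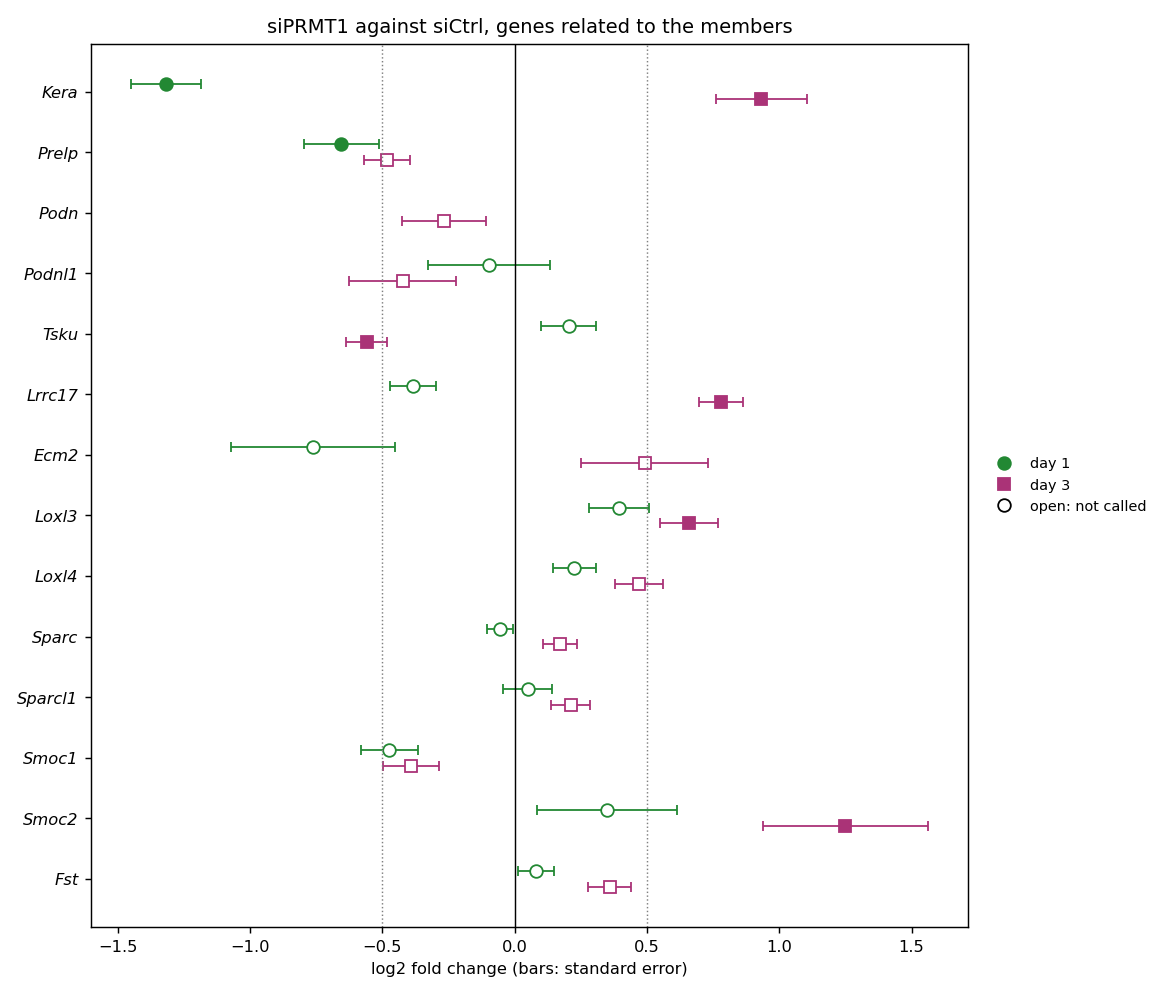
Log2 fold change of siPRMT1 against siCtrl (horizontal axis) with standard error for 14 related genes at day 1 (green circles) and day 3 (purple squares), 3 libraries per group. Filled symbols are called genes. Kera is called left of 0 at day 1 and right of it at day 3, and Podn was not tested at day 1.

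The remaining lysyl oxidases, Loxl3 and Loxl4, had no negative value in the knockdown comparisons. Loxl3, with 3.73, 4.04 and 4.54 FPKM in siCtrl against 5.53, 7.28 and 6.72 in siPRMT1 cells at day 3, was called higher at 0.66 (adjusted p = 8.0e-04), and Loxl4 stood at 0.47 under the fold threshold. At day 1 they stood at 0.39 and 0.23, not called. Between the days both were called lower in siCtrl cells, at -1.76 and -0.69. Of the 11 relatives of Fstl1, 6 were tested at day 1 with 0 called and 5 at day 3 with 1 called higher and 0 lower, and the shares of all genes called are those given above. The called gene was Smoc2, a matricellular calcium-binding protein, at 1.25 (standard error 0.311, adjusted p = 0.012) from 3 to 33 counts per library. Sparc (osteonectin), at 419 to 434 FPKM in siCtrl cells at day 1 between Fstl1 and Lox in level, stood at -0.05 and 0.17 in the knockdown comparisons. Sparcl1 (0.05 and 0.21), Smoc1 (-0.47 and -0.39) and Fst, follistatin (0.08 and 0.36), were not called either.

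Genes that work with these proteins were counted in the same way, against the 1.95% of all genes tested that were called higher and 1.61% lower at day 1 and the 2.84% and 3.80% at day 3. Among the genes tested 51.7% had a value above 0 at day 1 and 51.3% at day 3. Of 9 genes whose products process, scaffold or supply copper to lysyl oxidases, 8 were tested. At day 1, 3 of the 8 values were above 0 and 1 gene was called lower (Pcolce2, an enhancer of procollagen processing, -0.58), and at day 3, 7 were above 0, with a median of 0.23 and 0 called. The Pcolce2 call was lost in 5 of the 6 fits that left out 1 library and kept without siCtrl replicate 1.

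Of 17 elastic fibre genes, 16 were tested at day 1 (6 above 0) and 13 at day 3 (8 above 0). Mfap2, a microfibril protein, was called higher at day 1 (1.72), but the call was kept in 1 of the 6 fits that left out a library, the one without siCtrl replicate 3. At day 3 Ltbp1 (0.69) and Fbn1, which codes for fibrillin (0.57), were called higher and Emilin2 lower (-1.21), each with any 1 library left out. Fbln5 was also called higher at day 3 (0.51), at the edge of the fold threshold, and stayed called only without siCtrl replicate 2 or siPRMT1 replicate 1, with values from 0.46 to 0.58.

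Among 16 fibril-forming and fibril-associated collagen genes, 13 were tested at each day, with 6 values above 0 at day 1 and 8 at day 3, and 0 were called lower at either day. Col12a1 (0.59) and Col11a1 (0.75) were called higher at day 3 with any 1 library left out. Col27a1 was called higher at day 1 (0.58), and of the 6 fits that left out a library the call was kept in the one without siCtrl replicate 3. Of 21 collagen-modifying enzymes 19 were tested at each day, with 7 values above 0 at day 1 and 10 at day 3. Adamts14 was called higher at day 1 (0.99) and P4ha3, a proline hydroxylase subunit, at day 3 (1.14), both with any 1 library left out. P3h2 was called lower at day 1 (-0.68) and lost the call without siCtrl replicate 2 or siPRMT1 replicate 2 or 3. Plod2, a lysine hydroxylase, was called lower at day 3 (-0.53) and lost it without siCtrl replicate 1 or siPRMT1 replicate 2 or 3, with values from -0.65 to -0.41.

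Of 31 genes for the synthesis of glycosaminoglycan chains (25 tested at day 1 and 26 at day 3), 0 were called at day 1, and 12 and 14 values were above 0. At day 3 Csgalnact1 was called higher (0.53) and Chst1 (-0.51) and Chst15 (-0.55) lower, all near the fold threshold. Without siCtrl replicate 2 Csgalnact1 (0.46) and Chst1 lost the call, and without siPRMT1 replicate 1 Chst1 and Chst15 (-0.48) did, when 4 genes of the list were called higher and 0 lower. Of 16 growth factors and receptors that bind the proteoglycans or Fstl1, 12 were tested and 0 were called at either day, with medians of 0.04 and 0.12. Of 10 other proteoglycans (5 tested at day 1 and 6 at day 3), 0 were called at day 1 and Cspg4 was called lower at day 3 (-0.94), a call lost without siCtrl replicate 2 or siPRMT1 replicate 1 or 2.

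The genes whose pattern over the 12 libraries was nearest to that of each member were found by the root mean square difference of log2 CPM (counts scaled to the library total after TMM), centred on the gene's own mean, among the 9325 genes that averaged 10 CPM or more. Lox was nearest to Ptn, pleiotrophin (0.055), and then to Fstl1 (0.104), which is also the nearest member. Fstl1 was nearest to Myof, myoferlin (0.070), with Lox the fifth gene. Ptn had 543 to 650 FPKM in siCtrl cells at day 1 and 101 to 109 at day 3, against 462 to 489.96 and 188 to 201 under siPRMT1. Lum was nearest to Clca3a1 (0.183), a gene with close paralogs whose reads may be shared, and then to Aspn (0.192), and Aspn was nearest to Vamp7 (0.175), with Lum the fourth gene. Dcn was nearest to Pip (0.164), and its nearest member was Lum (0.442) at rank 428. Bgn was nearest to the taurine transporter gene Slc6a6 (0.062) and Loxl1 to the thyroid hormone receptor gene Thra (0.091), and the nearest member of each was the other (0.243), but only at rank 3061 for Bgn and 1084 for Loxl1. Ogn, Fmod and Loxl2 were under 10 CPM. The libraries within a condition share their treatment, so these distances describe 4 conditions and no test was made on them.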

How the data were processed

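RNA of 3T3-L1 cells was sequenced from 12 mRNA libraries, 3 in each of 4 conditions. The submitters' processing notes list cutadapt 1.11, HISAT2 2.1.0 and RSEM 1.2.6 and the build mm10. The tool behind the deposited counts, its strand setting and the treatment of reads with several matches are not given in the sources used here. The authors deposited whole-number counts per gene without normalization. The deposited FPKM values, made by the authors, were recomputed from count, gene length and library total within 0.005.

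Groups came from the labels. Counts were tested with edgeR 4.0.16 (R 4.3.3; quasi-likelihood test, TMM, filterByExpr, Benjamini-Hochberg adjustment over all genes tested), within the 2 groups compared or, for the interaction, over all 12 libraries. Standard errors were derived from the size of the log2 fold change and F (the ratio of the first to the root of the second). Genes were called at an adjusted p under 0.05 and, except for the interaction, an absolute log2 fold change over 0.5. Alternatives were DESeq2 1.42.0, RLE scaling, no filter, at least 10 counts in every library, all 12 libraries in 1 model, no fold threshold, limma 3.58.1 on log2(FPKM + 1) for genes averaging 1 FPKM or more, a pseudocount of 0.1, no FPKM filter, a replicate block and leaving out each library. The scripts were checked on simulated data.

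The members and the gene lists were chosen with earlier results of these data known. Named were the members, their relatives with a mean of at least 1 CPM, the 2 called genes with the smallest p per other list, the gene and member nearest in pattern to each member, and genes in counts of 5 or fewer, chosen after their values were seen. Promoter windows came from RefSeq, and those of 5 members were used. With 15116462 to 42357137 counts per library, a count of 0 allows up to 3 counts, counting error only.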

Additional observations from a re-analysis of the deposited data

Results flagged for a closer look

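The knockdown effect differed between day 1 and day 3 in 8 of the 10 members by the test of the difference itself, the interaction of siRNA and day in edgeR over all 12 libraries. Of the 14612 genes tested, 7.69% were called above 0 and 4.63% below. The members had been chosen from these levels, so the values describe the choice. The log2 difference, day 3 minus day 1, was 1.39 for Dcn (adjusted p = 3.3e-06), 1.65 for Lum (4.6e-06), 0.52 for Bgn (9.6e-04), 1.83 for Ogn (0.0015), 1.46 for Aspn (0.0014), 1.24 for Lox (4.2e-06) and 0.94 for Fstl1 (3.3e-06), and each of these 7 kept its call with any 1 of the 12 libraries left out. For Loxl1 it was 0.61 (adjusted p = 0.041), with calls kept in 4 of the 12 fits that left out 1 library and values between 0.43 and 0.72.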

How the results depend on the processing

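The number of members called lower at day 1 was the least stable: 3, but 6 with no fold threshold, 1 in each of the 3 limma fits on FPKM and 1 to 3 with a library left out. Under limma Lum alone was called. Over all genes the number was 220 of 13689, but 599 with no fold threshold and 50 to 113 in the limma fits. The number of members called higher over the course in siPRMT1 cells was 1, but 5 with no fold threshold, 0 with limma on log2(FPKM + 1) with and without the FPKM filter, and 0 to 2 with a library left out. Over all genes this number was 2705 of 14224, but 4583 with no fold threshold. In siCtrl cells the number of members called higher was 0, and 0 to 1 with a library left out, Loxl2 being called without siCtrl replicate 3 at day 1. The other member counts, for day 3, both courses lower and the interaction, stayed within 1.5 times. Signs that turned belonged to values that were not called, each with a library left out: Loxl2 at day 1 (-0.21 to 0.067), Fmod (-0.14 to 0.64) and Loxl1 (-0.028 to 0.16) at day 3, Bgn over the siPRMT1 course (-0.048 to 0.015), the interaction of Loxl2 (-0.14 to 0.19), and among relatives Podnl1 (-0.28 to 0.13) and Sparcl1 (-0.016 to 0.12) at day 1. The cause was not tested.

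Over all genes, leaving out 1 library gave 61 to 504 higher and 62 to 369 lower genes at day 1, against 267 and 220. Over the alternatives with every library, counts ran from 103 to 441 and 50 to 599 at day 1 and from 114 to 1058 and 228 to 1255 at day 3 (399 and 534). The courses gave 2312 to 4181 higher and 1652 to 3968 lower genes in siCtrl (3141 and 2828) and 1657 to 4583 and 1487 to 4431 in siPRMT1 cells (2705 and 2481). The interaction gave 549 to 1760 above 0 and 359 to 1974 below over all alternatives (1123 and 676).

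Correlations of same-numbered deviations ran from -0.43 to 0.52, and 1 to 3 of 6 libraries per comparison correlated best with their own number. With 3 libraries per group these values cannot settle whether the replicate numbers pair the libraries. With the replicate block the members gave 4 called lower at day 1 and 6 higher at day 3, and Ogn at day 1 was called (-0.89); over all genes 296 were higher and 240 lower at day 1, and 426 and 548 at day 3. Fmod, at 7 to 95 counts per library, and Loxl2, at 82 to 147, had the lowest levels, and the part of counting error in their values was not tested.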
